A study of Rattus norvegicus with 6 samples.

Results

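The genes described here are 9 genes of retinoid signalling and retinoid handling: the nuclear receptors Rara, Rarb, Rarg and Rxra, the retinoic acid binding proteins Crabp1 and Crabp2, the retinol receptor Stra6, and the short-chain reductases Dhrs3 and Dhrs9. They were picked by the gene symbols of the array platform, and all 9 were among the 15037 genes measured, each through 1 probe set. The cells were rat airway basal cells (rBC), the stem cells of the airway lining. They came from tracheal scrapings of wild-type male Sprague Dawley rats, which were 12 weeks old with a weight of 370 ± 39 g, with 3 rats pooled into each of 3 cell lines. On isolation, cells of every line went into both culture media: BEGM, a growth medium for bronchial epithelium, or EpiX, a second medium for epithelial cells. RNA was harvested on day 8. Each medium gave 3 arrays, numbered 1, 2 and 3 here by the sample number in the labels. The labels do not give the composition of either medium, so the retinoid content of both is unknown here.

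Retinoids are vitamin A and its derivatives. Cells take up retinol, oxidize it to retinal and then to retinoic acid, and break retinoic acid down again with enzymes of the Cyp26 family. Retinoic acid binds the RAR receptors, which work as pairs with an RXR receptor on response elements in DNA, and the RXR receptors also pair with many other nuclear receptors. In the airway, retinoic acid is known to favour a mucous and ciliated lining, and a lack of vitamin A leads to squamous change.

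The classic retinoic acid response element is a direct repeat of 2 six-base half-sites with 5 bases between them, called DR5. RefSeq promoter windows of assembly GRCr8, from 250 bases before to 50 after a gene's start, were searched on both strands for DR5 repeats and for repeats with a spacer of 1 (DR1) or 2 (DR2), where either half-site could be AGGTCA or the variant AGTTCA, or the same with a leading G, which gives GGGTCA and the variant GGTTCA. The motifs can overlap each other. All 9 genes had a window, and Rarg had a pair of them, which made 10. A DR5 was found in 1 of the 10, that of Rarb, and no DR1 or DR2 in any. Of the 81 measured genes on the pathway lists further on, 61 had a window and 20 were not searched. Among those searched, Cyp26a1 was the other gene with a DR5, on the opposite strand. Both genes are textbook targets of retinoic acid, so both sites are shown, with the half-sites in capitals.
Rarb: gggaagGGTTCAccgaaAGTTCActcgcat
Cyp26a1: taaagaTGAACTttgggTGAACTaatttgt

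The Rarb stretch lies at chr15:11336410-11336439 on the plus strand, and its repeat covers bases 25 to 41 after the annotated start. The Cyp26a1 stretch lies at chr1:244883724-244883753, also on the plus strand, with its repeat at bases -92 to -76 before the start. Of all 33469 windows, 128 (0.382%) held such a DR5, 78 (0.233%) a DR1 and 57 (0.170%) a DR2. A match describes letters in the window and does not show binding.

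The labelled cell type was checked against its markers. The basal keratin Krt14 lay between 16.38 and 17.13 on all 6 arrays, in the deposited log2 units used for all levels here. The basal cell regulator Tp63 differed by medium, with 12.23 to 12.93 in BEGM and 14.62 to 14.80 in EpiX (adjusted p = 0.0043, limma). The surface marker Ngfr was low, between 4.69 and 5.37, and the fibroblast collagen Col1a1 reached 12.34 on BEGM array 3, against 5.14 to 8.32 on the other arrays. Krt5, another basal marker, was not analysed here. On the first principal component BEGM array 1 scored -7.24, against -54.8 and -73.2 for the other BEGM arrays and 34.2 to 53.9 for EpiX, so it stood apart from its group. Over all genes, limma called 869 (5.78%) at a BH (Benjamini-Hochberg) adjusted p under 0.05, of which 395 (2.63%) were higher and 474 (3.15%) lower in EpiX. With each array centred on its median, 560 were higher and 409 lower, because centring shifts the median difference from 0.0022 to 0.13. The p-values by medium alone measure the spread between the 3 cultures of a medium, 1 array each, and do not use the pairing by line. Those with the sample number as a block measure the spread of the differences within same-numbered pairs.

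Of the 9 retinoid genes, 1 passed the test. Rxra, the receptor that partners the RARs, rose in EpiX, and 0 genes fell by limma. With the sample number as a block 2 passed, Rxra and Rarg, in a fit that called 1252 genes (8.33%), 3.94% higher and 4.39% lower. At an unadjusted p under 0.05 there were 2 higher, Rxra and Rarg, and 1 lower, Dhrs9. Over all genes 3377 of 15037 reached that p in the same fit, in either direction, so this count gives no pattern for the group. The share called higher, 1 of 9, stands beside 2.63% of all genes, and a single call gives no pattern for the group. The median difference over the 9 was -0.19, against 0.0022 over all genes. In 3 of the 9 the arrays of the media did not overlap, compared with 28.0% of all genes, a share near the background.

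**Figure D1:**
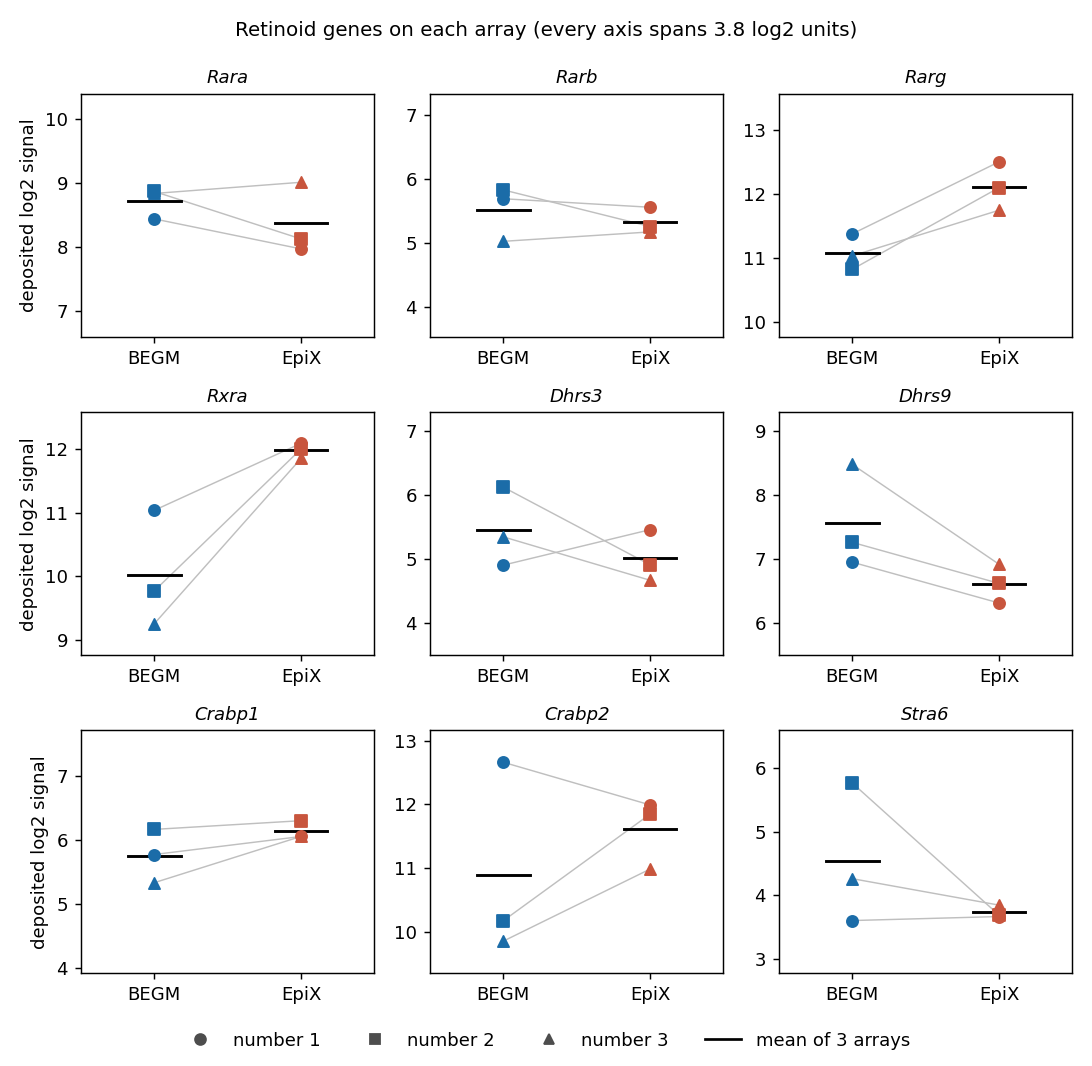
Deposited log2 signal (y axis) of the 9 retinoid genes on each BEGM and EpiX array (x axis). Points are single arrays, with the symbol giving the sample number, grey lines join arrays of the same number and black bars are means of 3 arrays. Rxra and Rarg are higher on every EpiX array than on any BEGM array, whereas Stra6 is spread widely in BEGM and closely grouped in EpiX.

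The receptors come first. In the order of the arrays 1, 2 and 3, which is kept below, Rxra was at 11.03, 9.77 and 9.25 in BEGM and at 12.08, 11.99 and 11.85 in EpiX. All EpiX arrays lay above all BEGM arrays, and the EpiX arrays were nearly equal (SD 0.12, n = 3) while the BEGM arrays varied (SD 0.92, n = 3). The mean went from 10.02 to 11.98, a rise of 1.96 ± 0.42 (SE; adjusted p = 0.0458, limma), or 3.88-fold if the logarithm has base 2. Differences within same-numbered pairs were 1.05, 2.22 and 2.59. Where a culture holds mixed cells, more cells of a type and more RNA per cell cannot be told apart.

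The Rxra call was close to its threshold. It held without BEGM array 1, where the rise was 2.46 ± 0.21 (SE; adjusted p = 0.000962), and ended when any other single array was left out. The adjusted p was then 0.167 without BEGM array 2, 0.0795 without BEGM array 3, and 0.147, 0.170 and 0.104 without EpiX array 1, 2 and 3. Without both arrays of number 2 it was 0.458, and without both of number 3 it was 0.139. The difference itself stayed between 1.57 and 2.46 over all settings tried.

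Rarg, the RAR form best known from squamous and stratified epithelium, was at 11.38, 10.82 and 11.03 in BEGM and at 12.51, 12.10 and 11.75 in EpiX. The groups did not overlap, and each same-numbered pair was higher in EpiX, by 1.13, 1.28 and 0.72. The difference of 1.04 ± 0.24 (SE) missed the threshold in the fit by medium alone (adjusted p = 0.0547) and passed it with the sample number as a block (adjusted p = 0.0279). It also passed without BEGM array 1 (adjusted p = 0.0229). Without 1 of the other arrays the adjusted p lay between 0.0594 and 0.185.

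**Figure D2:**
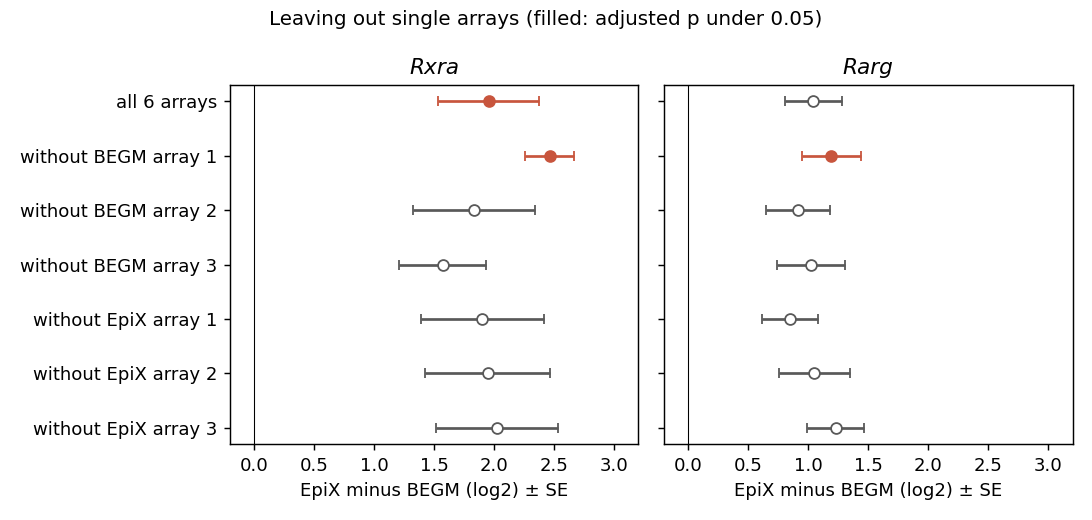
EpiX minus BEGM difference in log2 units ± SE (x axis) for Rxra and Rarg with all 6 arrays and without each array in turn (y axis). Filled points have an adjusted p under 0.05. The difference is above 0 throughout, and the calls without an array are those without BEGM array 1, at 2.46 for Rxra and 1.19 for Rarg.

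Rara, the most widely expressed RAR, was at 8.44, 8.87 and 8.83 in BEGM and at 7.97, 8.12 and 9.01 in EpiX. EpiX array 3 was the highest of the 6 and the other EpiX arrays the lowest, so the groups overlapped. The difference was -0.35, with a 95% interval from -1.04 to 0.35 (adjusted p = 0.554). It ran from -0.67 without EpiX array 3 to -0.15 without EpiX array 1.

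Rarb, whose gene carries the DR5 shown above and which retinoic acid induces in many cells, was at 5.69, 5.83 and 5.03 in BEGM and at 5.56, 5.26 and 5.17 in EpiX. The lowest array was BEGM array 3 and the EpiX arrays lay inside the BEGM range. The difference was -0.19, with an interval from -0.76 to 0.38 (adjusted p = 0.716). Leaving out BEGM array 3 gave -0.43, leaving out BEGM array 2 gave -0.0292, and leaving out pair 2 gave 0.007.

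The 3 RARs were compared with each other by their log2 difference within each array, which shows unequal change and not unequal level. Rarb minus Rarg was -5.68, -4.99 and -6.01 in BEGM and -6.95, -6.85 and -6.58 in EpiX, so every EpiX array was lower, by 1.23 on average. Rara minus Rarg differed by -1.39 and Rara minus Rarb by -0.16. The exact two-sided permutation p-values were 0.1, 0.2 and 0.8, where 0.1 is the smallest that 3 arrays against 3 can give, and over the 5 pairs compared in this way the adjusted values were 0.5, 0.5 and 0.8. This test therefore could not place any of these pairs past 0.05.

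**Figure D3:**
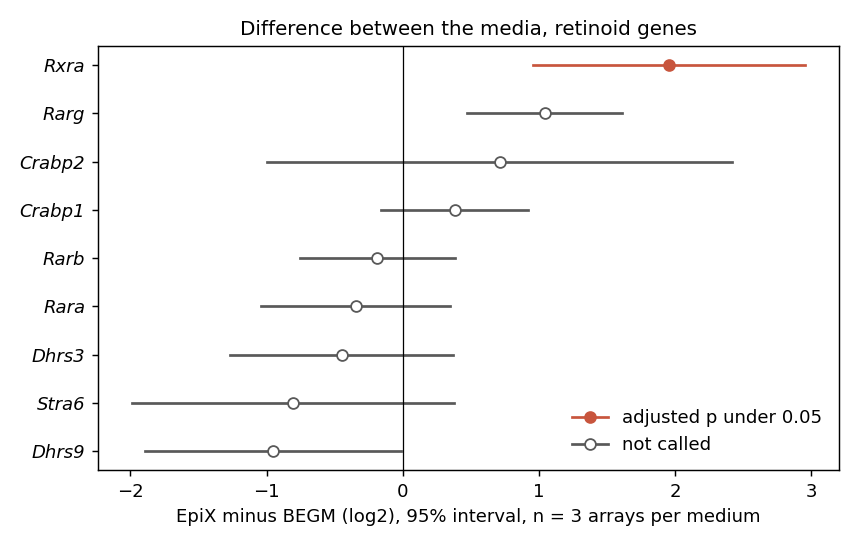
EpiX minus BEGM difference in log2 units with its 95% interval (x axis) for each retinoid gene (y axis), 3 arrays per medium. Rxra at 1.96 is the filled point, with an adjusted p under 0.05. The intervals for Crabp2 (-0.997 to 2.42) and Stra6 (-1.99 to 0.37) are the widest.

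Among the binding proteins, Crabp2 delivers retinoic acid to the RARs in the nucleus. It was at 12.66, 10.18 and 9.86 in BEGM and at 11.99, 11.85 and 10.99 in EpiX. BEGM array 1 was the highest of all 6 arrays and the other BEGM arrays were the lowest. The difference of 0.71 ± 0.72 (SE) did not pass (adjusted p = 0.630), with an interval from -0.997 to 2.42. Without BEGM array 1 it was 1.59 ± 0.32 and passed (adjusted p = 0.0203). Same-numbered pairs differed by -0.67, 1.67 and 1.13.

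Crabp1, which holds retinoic acid in the cytoplasm, was at 5.77, 6.16 and 5.33 in BEGM and at 6.05, 6.30 and 6.05 in EpiX. The EpiX arrays lay close together and 1 BEGM array lay among them. The difference was 0.38, with an interval from -0.16 to 0.92 (adjusted p = 0.388). It was 0.59 without BEGM array 2 and 0.17 without BEGM array 3. Crabp1 minus Crabp2 within an array changed by -0.33 between the media (exact permutation p = 0.8, adjusted 0.8), and its sign turned without BEGM array 2.

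Stra6, the membrane receptor through which cells take up retinol from its carrier in blood, was at 3.61, 5.76 and 4.26 in BEGM and at 3.67, 3.69 and 3.85 in EpiX. BEGM array 2 was the highest, the lowest was BEGM array 1, and the groups overlapped. Its mean over the 6 arrays lay among the dimmest 25% of genes. The difference was -0.81, with an interval from -1.99 to 0.37 (adjusted p = 0.404), and -0.20 without BEGM array 2.

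The 2 reductases act at the first, reversible step between retinol and retinal. Dhrs3 turns retinal back to retinol and thereby limits retinoic acid, which is known to induce it. Dhrs3 was at 4.90, 6.12 and 5.34 in BEGM and at 5.46, 4.91 and 4.66 in EpiX. The groups overlapped and pair 1 went up by 0.56 while pairs 2 and 3 differed by -1.22 and -0.68. The difference was -0.45, with an interval from -1.27 to 0.37 (adjusted p = 0.512), and -0.11 without BEGM array 2 but -0.73 without BEGM array 1.

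Dhrs9, which can oxidize retinol, was at 6.95, 7.26 and 8.49 in BEGM and at 6.31, 6.62 and 6.92 in EpiX. Every EpiX array lay below every BEGM array, with BEGM array 1 and EpiX array 3 almost touching, and all same-numbered pairs were lower in EpiX. The difference of -0.95 ± 0.40 (SE) did not pass (adjusted p = 0.219, and 0.0711 with the sample number as a block), and was -0.49 without BEGM array 3. Dhrs3 minus Dhrs9 within an array changed by 0.50 (exact permutation p = 0.5, adjusted 0.8), and by -0.0125 without BEGM array 3.

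Around these genes, 7 lists of the pathway were read from the same fit, by counts and medians, with the 5.78% of all genes called as the background. The background was 8.33% with the sample number as a block, and 13.9% without BEGM array 1 (6.57% higher and 7.32% lower), for the counts given under those settings. For counts at an unadjusted p under 0.05, in the lists and the cell markers, it was 3377 of 15037 genes, in either direction. Listed genes with no named probe set were not analysed here, and Cyp26a1, Cyp26b1, Lrat and Nrip1 stand in a pair of lists each. Of 18 measured enzymes that oxidize or reduce retinol and retinal, 4 (22.2%) were called, 2 higher and 2 lower, and 14 did not pass, with a median difference of 0.15. Adh7, the alcohol dehydrogenase of upper digestive and airway linings that oxidizes retinol, was at 5.92, 6.76 and 6.69 in BEGM and at 10.96, 9.24 and 9.62 in EpiX. It rose by 3.49 ± 0.46 (SE; adjusted p = 0.0111). Rdh12, a retinal reductase, rose by 1.52 ± 0.15 (adjusted p = 0.0047), with BEGM arrays at 5.40 to 5.73 and EpiX arrays at 6.97 to 7.12.

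The enzymes that fell were Rdh16 and Dhrs4. Rdh16, a retinol dehydrogenase, was at 7.59, 9.38 and 9.18 in BEGM and at 5.66, 5.13 and 5.74 in EpiX, and fell (-3.21 ± 0.47, SE; adjusted p = 0.0143). Dhrs4, a reductase of retinal and other carbonyls, fell by 1.69 ± 0.33 (adjusted p = 0.0334). The calls of this enzyme group thus went in both directions. Of these 4, Rdh12 kept its call without any single array, Adh7 had an adjusted p of 0.0526 without BEGM array 2, and Rdh16 and Dhrs4 lost theirs without EpiX array 1 (0.062 and 0.122), BEGM array 2 (0.0707 and 0.11) or EpiX array 2 (0.082 and 0.137). Dhrs4 also lost it without EpiX array 3 (0.0804). Without BEGM array 1, 5 enzymes of the list were higher and 3 lower.

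The enzymes that make retinoic acid from retinal did not pass. Aldh1a3 was at 11.89, 9.62 and 8.87 in BEGM and at 11.14, 10.46 and 10.43 in EpiX, with BEGM array 1 the highest of all, as for Crabp2. Its difference was 0.55 ± 0.72 (SE; adjusted p = 0.721), and 1.43 without BEGM array 1 (adjusted p = 0.027). Aldh1a2 differed by -0.89 (adjusted p = 0.124, and 0.0457 with the sample number as a block), and Aldh1a1 by 0.80 (adjusted p = 0.381), with EpiX array 3 at 6.92 and the other 5 arrays between 4.86 and 5.55.

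For breakdown of retinoic acid, 0 of 3 measured genes were called by limma, and 1 was lower at an unadjusted p under 0.05. Cyp26a1, whose window holds the other DR5, was dim on every array, at 3.85, 3.71 and 4.09 in BEGM and at 3.73, 3.99 and 3.88 in EpiX, and differed by -0.0175 ± 0.16 (SE; adjusted p = 0.970). Cyp26b1 was at 6.26, 8.25 and 6.96 in BEGM and at 5.11, 5.73 and 6.01 in EpiX, with no overlap. Its difference of -1.54 ± 0.50 (SE) had an adjusted p of 0.131, and of 0.0498 with the sample number as a block. Cyp2s1, a cytochrome of surface epithelia that can oxidize retinoic acid, differed by 1.43 ± 0.70 (adjusted p = 0.287, and 0.037 with the block).

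Among 12 measured carriers and uptake and storage genes, 0 were called by limma, with 2 higher and 3 lower at an unadjusted p under 0.05 and a median of 0.0673. The largest differences were those of the retinol binding protein Rbp2 (2.07 ± 0.79, SE; adjusted p = 0.182) and of Fabp5 (1.34 ± 0.37; adjusted p = 0.0863), which carries fatty acids and can carry retinoic acid to PPAR-delta. With the sample number as a block both passed (adjusted p = 0.0291 and 0.0382). Rbp2 was at 11.79, 10.64 and 8.57 in BEGM and at 12.87, 12.79 and 11.55 in EpiX, so BEGM array 1 lay above EpiX array 3. Lrat, the enzyme that stores retinol as esters, was dim, with 4.40 to 4.78 in BEGM and 3.69 to 4.21 in EpiX.

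Of 15 measured receptors outside the 9 genes, including partners of RXR, 0 were called by limma, 3 were higher and 1 was lower at an unadjusted p under 0.05, and the median was 0.0952. The largest differences were those of Nr4a1 (-0.81 ± 0.34, SE; adjusted p = 0.221) and the thyroid hormone receptor Thra (0.75 ± 0.17; adjusted p = 0.0543). Thra had an adjusted p of 0.0264 with each array centred on its median. Rxrb, another RXR, was at 5.62 to 6.06 in BEGM and 6.08 to 6.59 in EpiX and differed by 0.47 ± 0.20 (adjusted p = 0.223). Rxrg was dim, between 4.07 and 4.67 on all arrays. Whether Rxra changed more than the other RXR genes was not tested.

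Of 8 measured co-regulators, through which the receptors switch genes on or off, 1 rose and 7 did not pass, with a median of 0.21. Tbl1xr1, which helps to exchange co-repressors for co-activators, was at 11.34, 11.50 and 11.67 in BEGM and at 12.51, 12.42 and 12.45 in EpiX. It rose by 0.95 ± 0.14 (SE; adjusted p = 0.0158), with adjusted p between 0.0503 and 0.084 without EpiX array 1, 2 or 3 or BEGM array 2. The co-repressor Ncor1 differed by 0.40 ± 0.16 (adjusted p = 0.194).

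**Figure D4:**
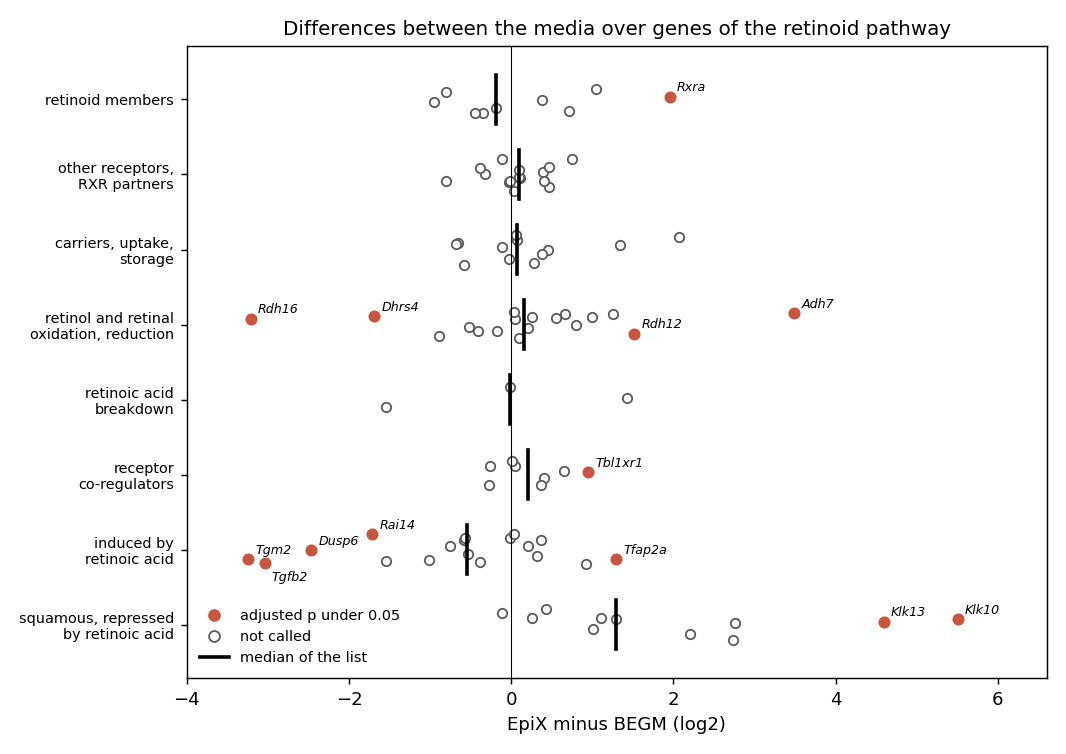
EpiX minus BEGM differences in log2 units (x axis) of the 9 retinoid genes and of the 7 pathway lists (y axis). Each point is a gene, filled where the adjusted p was under 0.05, and black bars are list medians, from -0.55 for genes induced by retinoic acid to 1.29 for squamous genes.

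Genes known from other systems to be induced by retinoic acid had a median difference of -0.55, against 0.0022 over all genes. Of 18 measured, 4 fell, 1 rose and 13 did not pass, so that 27.8% were called. The falls were those of the transglutaminase Tgm2 (-3.24 ± 0.54, SE; adjusted p = 0.0215), the growth factor Tgfb2 (-3.04 ± 0.23; adjusted p = 0.0022), the phosphatase Dusp6 (-2.46 ± 0.48; adjusted p = 0.0332) and the actin-binding protein Rai14 (-1.71 ± 0.19; adjusted p = 0.0074). The rise was that of the transcription factor Tfap2a (1.29 ± 0.16; adjusted p = 0.0088), named after its values were seen. Tgm2 was at 10.21, 9.84 and 8.07 in BEGM and at 5.82, 6.59 and 5.99 in EpiX. Among the uncalled genes, Cyp26a1, Rarres1, Rarres2 and Nrip1 differed by -0.0175, 0.0391, 0.21 and 0.36. Cyp26b1 and Lrat, also uncalled, differed by -1.54 and -0.58. Of the 18, 7 were lower and 1 higher at an unadjusted p under 0.05. Cyp26a1, Rarres1, Rarres2 and Lrat, 4 of the 18, were dim. Whether the response to retinoic acid differed between the media was not tested. As background, Tgfb2 and Tgm2 are also known to answer to TGF-beta and Dusp6 to MAP kinase. What the falls depend on was not tested. The falls numbered 7 without BEGM array 1, 2 without EpiX array 1 or BEGM array 2, and 1 without EpiX array 2, where Tgfb2 was left. Over all genes, limma called 474 lower with all arrays. That count was 99 without EpiX array 1, 111 without BEGM array 2 and 63 without EpiX array 2. Tgm2 lost its call without EpiX array 1, 2 or 3 or BEGM array 2 (adjusted p 0.0689 to 0.101), Dusp6 without EpiX array 1 or 2 or BEGM array 2 or 3 (0.0803 to 0.141) and Rai14 without EpiX array 2 (0.0592). The rise of Tfap2a ended without EpiX array 2 (adjusted p = 0.0594).

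Squamous genes, listed here as repressed by retinoic acid in airway cultures, had a median difference of 1.29 over 11 measured. Whether retinoic acid represses each of them in these cells was not tested. The kallikreins Klk13 (4.60 ± 0.52, SE; adjusted p = 0.0074) and Klk10 (5.51 ± 1.09; adjusted p = 0.0359) rose, 0 fell by limma and 9 did not pass. At an unadjusted p under 0.05, 5 were higher and 0 lower. Tgm1, the cross-linking enzyme of the cornified envelope, was at 16.24 to 17.33 in BEGM and 16.50 to 16.90 in EpiX. Its difference was -0.11, and those of Ivl and Krt1 were 0.42 and 0.25, none of them called. The list's mean level was 12.61, 10.62 and 10.48 in BEGM and 13.32, 13.23 and 13.10 in EpiX, so BEGM array 1 lay nearer to EpiX, and 8 genes rose without that array. Klk10 lost its call without any of the other 5 arrays (adjusted p 0.0677 to 0.146), and Klk13 without EpiX array 2 (adjusted p = 0.0531).

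By Euclidean distance over the 6 arrays, after each gene was centred on its own mean, the genes nearest to Rxra were Epha1, Cav2 and Sox2, at distances of 0.25, 0.28 and 0.45 log2 units, with Pearson correlations of 0.997, 0.997 and 0.992. The arrays share the split by medium, so this is a description only. Sox2, a transcription factor of airway progenitors, was at 10.94, 9.54 and 9.09 in BEGM and at 12.38, 11.75 and 11.87 in EpiX. In each of them, as in Rxra, BEGM array 1 was the nearest of its group to EpiX. They were picked for nearness to Rxra on these same arrays, so this shared pattern is no separate result.

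Markers of other cells were also read on the 6 arrays. Mean levels over 7 fibroblast markers were 6.82, 7.48 and 10.24 in BEGM and 5.59 to 6.13 in EpiX. They ran in the opposite order to Rxra on the BEGM arrays. By limma 0 of the 7 were called, with 4 lower at an unadjusted p under 0.05. Over 5 smooth muscle markers the means were 7.68 to 8.47 in BEGM and 5.91 to 6.11 in EpiX, with Cnn1 and Acta2 called lower and the defining Myh11 and Des among the dimmest 25% of genes. Over 5 leukocyte markers they were 5.23 to 5.77 and 5.22 to 5.48, with Cd74 called lower and Ptprc, Tyrobp and Laptm5 among the dimmest 25% of genes. The brightest of them, Cd68, went the other way without a call (1.04, adjusted p = 0.400, limma). It was at 8.65 to 10.22 in BEGM and 9.17 to 11.36 in EpiX. Over 5 endothelial markers they were 5.22 to 5.52 and 4.60 to 4.75, with 0 called by limma and 2 lower at an unadjusted p under 0.05. Of 6 measured basal markers 4 rose and 0 fell by limma. The rises were those of Krt15 (4.12), Aqp3 (4.09), Bcam (3.11) and Tp63 (2.15), while Krt14 and Ngfr did not pass. Of 4 secretory markers 1 rose, Cyp2f4 (1.74). Scgb3a1 differed by 5.72 ± 1.43 (SE; adjusted p = 0.0675, limma) without overlap, and Scgb1a1 and Scgb3a2 by -0.85 and -0.38 without a call. Of 4 ciliated markers 0 were called by limma, with 1 higher and 1 lower at an unadjusted p under 0.05. The part of these cells in the retinoid values was not tested.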

How the data were processed

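RNA of 6 cultures was measured on 6 Affymetrix arrays, per the labels' protocols. Per the submitters' processing notes, the Transcriptome Analysis Console was used, with no role or version named. How the signals were normalized is not given in the sources used here. For 24834 probe sets, the authors' deposited log2 values ran from 2.62 to 18.66. The unit was inferred from that range, and the base, scale and centring stay unknown. Probe sets were named through the platform annotation: 15049 had 1 symbol, 0 several and 9785 none. The brightest was kept for each gene. Detection calls were not used here, and the number of arrays limits precision.

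All genes were fitted in limma 3.58.1 (lmFit, eBayes; R 4.3.3) by medium alone, and p-values, two-sided, were BH-adjusted over all 15037. Differences are EpiX minus BEGM. Within-array differences of related genes were tested by exact permutation. The fit was checked on simulated data. The promoter sequences are those of RefSeq.

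Arrays of the same number were treated as 1 line, because each line was divided. In the titles, the pair numbered 2 carries a 3 and the pair numbered 3 carries no line number, so the pairing of number 3 is assumed. Deviations of same-numbered arrays from group means correlated at 0.32, -0.01 and 0.32 for numbers 1, 2 and 3. The alternatives were the number as a fixed or random block, quantile normalization, median centring, a filter on dim genes, trended variance, array weights, the mean of probe sets, and leaving out arrays.

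The members, lists and tests were chosen with earlier results of these data known. Named genes were the 9 members, up to 4 called genes of each list with the largest differences (or 2 where none was called), and the 3 genes nearest to a called member. Further list genes were named after their values were seen. They were Rxrb, Rxrg, Lrat, Ncor1, Tgm1, Ivl, Krt1, Rarres1, Rarres2, Nrip1, the Aldh1a genes, Cyp26a1, Tfap2a and the markers.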

Additional observations from a re-analysis of the deposited data

How the results depend on the processing

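Over the settings run, 0 to 3 of the 9 genes were called higher and 0 lower by limma. The number called higher was 2 with the sample number as a replicate block, with the random block, with quantile normalization, with median centring, with the trended and robust variance and with array weights, Rarg joining Rxra each time, and 0 to 3 when arrays were left out, with Crabp2 the third without BEGM array 1. The count over all genes was 1252 with the replicate block, 1987 with array weights and 0 to 2089 when arrays were left out. At 0, without both arrays of number 2, limma gave 1582 genes at an unadjusted p under 0.05. Rarb was the gene whose difference changed sign, to 0.007 in that setting, and it ran from -0.43 to 0.007 when arrays were left out. When single arrays were left out, the unequal change ran from -0.56 to 0.155 for Rara minus Rarb, -1.20 to 0.237 for Crabp1 minus Crabp2 and -0.0125 to 0.988 for Dhrs3 minus Dhrs9. With the replicate block, the sign-flip p-values of the 5 pairs lay between 0.25, the smallest possible, and 0.75. In the pathway lists, the calls among carriers and breakdown genes went from 0 to 2 each with the block, those among retinol and retinal enzymes ran from 1 to 5 higher and 0 to 3 lower without single arrays, and those among squamous genes from 0 to 8 higher. The block changed no other count of a list by over 1.5 times. The causes were not tested. The count over all genes rose without BEGM array 1 and fell without any other single array. For dim genes such as Stra6 and Cyp26a1, levels near the floor of the arrays limit what could be seen.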
